A study of Mus musculus with 8 samples.

Results

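The 9 interferon-inducible GTPase genes described here were measured in immature myeloid cells (IMCs) of mice that lack PARP1 or PARP2 in the myeloid lineage. Members were found by symbol, and all 9 were located among the 24062 genes of the count table. They comprise 5 guanylate-binding proteins (GBPs: Gbp2, Gbp3, Gbp5, Gbp7 and Gbp9) and 4 immunity-related GTPases (IRGs: Irgm1, Igtp, Irgm2 and Iigp1). No member passed the test of either deletion. All 9 had lower group means in the PARP2 flox line than in the PARP1 flox line, with and without Cre.

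GBPs and IRGs are large GTPases that macrophages and other cells make in quantity in response to interferon. They gather on the vacuoles of intracellular pathogens, break the vacuole membrane and expose microbial products to the cytosol and to inflammasomes. Irgm1, Igtp and Irgm2 are regulatory IRGs that sit on host membranes and keep the effector IRGs inactive there, whereas Iigp1 is an effector that coats pathogen vacuoles.

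The IMCs were grown from the bone marrow of 2-month-old C57BL/6 mice over 3 days with M-CSF at 40 ng per mL, and their total RNA gave 8 libraries, 2 for each of 4 groups. PARP1 WT mice were PARP1 flox/flox without Cre and PARP1CKO mice were PARP1 flox/flox with lysozyme-Cre. PARP2 WT and PARP2CKO mice carried PARP2 flox/flox without and with lysozyme-Cre. Every group therefore carried a floxed gene, no group was free of floxed alleles, and Cre was present only in the CKO groups, where it acts in lysozyme-expressing myeloid cells. In the study's methods the controls were littermates of the CKO mice. The series is described as biological duplicates, and the labels do not say how many mice entered a culture. No interferon or infection was applied according to the labels.

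Gene counts summed to between 37852450 and 61845125 in a library, and 13197 genes, among them all 9 members, passed the filter on low counts. Values are CPM, counts brought to a common library size after scaling each library by its total and its TMM composition factor, which lay between 0.965 and 1.026. Parp1 had 206 ± 6.18 CPM in PARP1 WT IMCs and 61.2 ± 2.91 CPM in PARP1CKO IMCs (SD, n = 2). In PARP2 WT IMCs it had 203 ± 67.8 CPM (SD, n = 2), with 14530 counts in replicate 1 and 8082 in replicate 2, so these 2 libraries differed widely. Parp2 had 48.3 ± 0.105 CPM in PARP2 WT IMCs and 25.7 ± 0.0779 CPM in PARP2CKO IMCs (SD, n = 2). Both targeted genes passed edgeR's quasi-likelihood test, with adjusted p = 0.0134 for Parp1 and 0.000139 for Parp2. The receptor gene Csf1r, a marker of monocytes and macrophages, had between 46904 and 74901 counts in the 8 libraries, whereas the T cell gene Cd3e had between 0 and 6.

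The members lie in 5 places on 4 mouse chromosomes, given here in mm10 with GENCODE M21 gene models. Gbp5 (chr3:142493978-142522344), Gbp7 (chr3:142530342-142550149), Gbp3 (chr3:142560026-142573209) and Gbp2 (chr3:142620602-142638008) lie in this order on the plus strand. Gbp9 (chr5:105077630-105139539) lies on the minus strand of chromosome 5 in the other GBP cluster. Igtp (chr11:58199556-58207591) and Irgm2 (chr11:58199618-58222782) overlap on the plus strand of chromosome 11. Irgm1 (chr11:48861968-48871683) lies apart from them on the minus strand, and Iigp1 is on chromosome 18 from 60376027 to 60392634. All 9 are protein-coding.

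Some members share sequence that reads of 75 bases cannot tell apart. Of the 75-base stretches of each member's transcripts, 11.3% in Gbp7, 7.8% in Igtp, 4.78% in Irgm2 and 3.61% in Gbp9 occur exactly in another gene. The partner was mainly the overlapping model Gm43802 for Gbp7, and Igtp and Irgm2 shared with each other. Irgm1 and Iigp1 shared no such stretch, and the remaining 3 members shared between 0.578% and 2.06%. The counts of Gbp7, Igtp and Irgm2 are thus the least certain in how reads were divided.

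Promoters are shown because interferon acts on these genes through 2 short elements, an ISRE-type element and a GAS-type element. RefSeq promoter entries for GRCm38.p6, which run from 250 bases before to 50 after the annotated start, were matched to 7 members by symbol. For the ISRE-type element, the letters GAAA, any 2 bases and GAAA again were searched on both strands, and matches may overlap each other. They were present in the promoters of 7 of these 7 genes, against 3.44% of all 32851 RefSeq promoters of that length. TTCNNNGAA (GAS-type), searched likewise, was present for 4 of the 7 genes (Gbp5, Gbp7, Igtp and Irgm2), against 8.30% of all promoters. Capitals mark the ISRE-type letters, which lie on the opposite strand in the 4 Gbp genes and on the gene's own strand in the IRGs. Counted by promoter entry, 7 of the members' 8 entries held the ISRE-type letters, since 1 of the 2 entries of Gbp3 lacked them. Gbp3 and Irgm1 each hold 2 overlapping matches.
Gbp2, chr3:142620579-142620628, plus strand: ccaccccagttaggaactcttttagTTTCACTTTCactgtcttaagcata
Gbp3, chr3:142559974-142560029, plus strand: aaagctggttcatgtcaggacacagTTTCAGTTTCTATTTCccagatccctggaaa
Gbp5, chr3:142496744-142496793, plus strand: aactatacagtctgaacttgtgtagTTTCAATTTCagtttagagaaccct
Gbp7, chr3:142530258-142530307, plus strand: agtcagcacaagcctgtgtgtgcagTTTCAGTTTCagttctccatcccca
Igtp, chr11:58199497-58199546, plus strand: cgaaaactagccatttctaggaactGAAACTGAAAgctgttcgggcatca
Irgm1, chr11:48871421-48871475, minus strand: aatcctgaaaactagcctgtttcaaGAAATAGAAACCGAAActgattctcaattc
Irgm2, chr11:58214888-58214937, plus strand: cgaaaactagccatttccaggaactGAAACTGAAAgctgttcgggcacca

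Positions are counted from the start of the RefSeq entry, which can differ from the GENCODE gene start given above. The stretches of Gbp5, Irgm2 and Irgm1 lie inside their GENCODE genes. The matches began at base -165 in Gbp5, -64 in Irgm2, -59 in Gbp2, -53 in Gbp7 and -34 in Igtp. In Gbp3 they began at -45 and -39, and in Irgm1 at -30 and -24. Among the type I interferon response genes compared below, 11 of the 20 with a promoter entry held the ISRE-type letters, and among interferon-gamma signalling genes 2 of 12. A match describes letters in this window and is not evidence of binding.

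Per kilobase of exon the regulatory IRGs stood highest among the members, with medians over the 8 libraries of 5.73 CPM per kb for Irgm1, 4.96 for Igtp and 3.97 for Irgm2. The GBPs followed, with medians of 1.66 CPM per kb for Gbp2, 1.63 for Gbp9, 1.30 for Gbp7, 0.784 for Gbp3 and 0.143 for Gbp5. The effector Iigp1 was lowest at 0.0762. Irgm1 ranged from 4.65 to 9.45 CPM per kb across libraries and Igtp from 4.72 to 7.02, so these neighbours overlapped, as did Gbp2 (1.28 to 2.50) and Gbp9 (1.08 to 2.07).

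The regulatory IRGs are described first, with the libraries of each group in the order replicate 1, replicate 2. Irgm1, which restrains effector IRGs and supports autophagy, had 45.9 and 35 CPM in PARP1 WT IMCs, 37.0 and 54.9 CPM in PARP1CKO IMCs, 30.3 and 31.6 CPM in PARP2 WT IMCs, and 27.0 and 30.5 CPM in PARP2CKO IMCs. One PARP1CKO library lay between the WT libraries and the other above both, and all 4 libraries of the PARP2 line lay below all 4 of the PARP1 line. The log2 fold change of Irgm1 was 0.18 (SE 0.175, adjusted p = 0.711) for PARP1CKO against PARP1 WT and -0.11 (SE 0.178, adjusted p = 0.977) for PARP2CKO against PARP2 WT.

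Igtp, also called Irgm3, had 12.2 and 9.84 CPM in PARP1 WT IMCs, 10.9 and 14.2 CPM in PARP1CKO IMCs, 9.84 and 9.86 CPM in PARP2 WT IMCs, and 9.54 and 10.2 CPM in PARP2CKO IMCs. Both deletion comparisons overlapped, and PARP1 WT replicate 2 sat at the level of the PARP2 line. Its log2 fold change was 0.19 (SE 0.137, adjusted p = 0.617) in PARP1CKO and 0.00 (SE 0.137, adjusted p = 0.998) in PARP2CKO. Irgm2, a regulatory IRG of the Golgi, had 17.5 and 15.1 CPM in PARP1 WT IMCs, 15.8 and 21.6 CPM in PARP1CKO IMCs, 12.9 and 14.2 CPM in PARP2 WT IMCs, and 11.2 and 12.4 CPM in PARP2CKO IMCs. Both PARP2CKO libraries of Irgm2 lay below both PARP2 WT libraries. The log2 fold change of Irgm2 was 0.20 (SE 0.141, adjusted p = 0.618) in PARP1CKO and -0.20 (SE 0.144, adjusted p = 0.954) in PARP2CKO.

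Iigp1, the effector, rested on few reads, with 41 and 24 counts in PARP1 WT IMCs, 32 and 80 counts in PARP1CKO IMCs, 23 and 21 counts in PARP2 WT IMCs, and 20 and 7 counts in PARP2CKO IMCs. In CPM these were 1.06 and 0.484, 0.634 and 1.77, 0.398 and 0.404, and 0.335 and 0.145. The highest library, PARP1CKO replicate 2, and the lowest, PARP2CKO replicate 2, were both CKO libraries. The log2 fold change of Iigp1 was 0.66 (SE 0.519, adjusted p = 0.653) in PARP1CKO and -0.69 (SE 0.685, adjusted p = 0.968) in PARP2CKO, the largest SEs of the 9 members in these comparisons. The PARP2CKO value was -1.45 without PARP2CKO replicate 1 and -0.25 without PARP2CKO replicate 2, and the PARP1CKO value ran from -0.24 without PARP1CKO replicate 2 to 1.29 without PARP1 WT replicate 1.

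Among the GBPs, Gbp2 is a lipid-modified GBP that is recruited to pathogen vacuoles. It had 5.53 and 4.37 CPM in PARP1 WT IMCs, 4.80 and 6.28 CPM in PARP1CKO IMCs, 3.41 and 3.96 CPM in PARP2 WT IMCs, and 3.30 and 3.23 CPM in PARP2CKO IMCs. Both PARP2CKO libraries lay below both PARP2 WT libraries, and the PARP1CKO libraries overlapped their WT. Gbp5, which is also lipid-modified and has been linked to inflammasome assembly, had 1.24 and 1.17 CPM in PARP1 WT IMCs, 1.03 and 2.06 CPM in PARP1CKO IMCs, 0.623 and 0.865 CPM in PARP2 WT IMCs, and 0.654 and 0.580 CPM in PARP2CKO IMCs. The PARP1CKO libraries of Gbp5 were the lowest and the highest of the PARP1 line. Gbp7 had 9.87 and 7.98 CPM in PARP1 WT IMCs, 8.35 and 11.7 CPM in PARP1CKO IMCs, 6.17 and 6.67 CPM in PARP2 WT IMCs, and 6.07 and 6.15 CPM in PARP2CKO IMCs. The PARP2CKO libraries of Gbp7 lay just under those of PARP2 WT, by less than the gap between the PARP2 WT libraries.

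Gbp3 had 3.88 and 2.56 CPM in PARP1 WT IMCs, 2.56 and 4.34 CPM in PARP1CKO IMCs, 2.06 and 2.58 CPM in PARP2 WT IMCs, and 1.63 and 2.36 CPM in PARP2CKO IMCs, so that both deletion comparisons and the WT groups overlapped, while both PARP2CKO libraries lay below both PARP1CKO libraries. Gbp9 had 10.2 and 8.89 CPM in PARP1 WT IMCs, 9.89 and 10.7 CPM in PARP1CKO IMCs, 8.01 and 5.61 CPM in PARP2 WT IMCs, and 6.34 and 6.88 CPM in PARP2CKO IMCs. The PARP2 WT libraries of Gbp9 lay on either side of the PARP2CKO libraries. Over the 5 GBPs the log2 fold change ran from 0.11 (Gbp3) to 0.35 (Gbp5) in PARP1CKO, with adjusted p from 0.702 up, and from -0.26 (Gbp5) to -0.05 (Gbp9) in PARP2CKO, with adjusted p from 0.968 up.

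**Figure D1:**
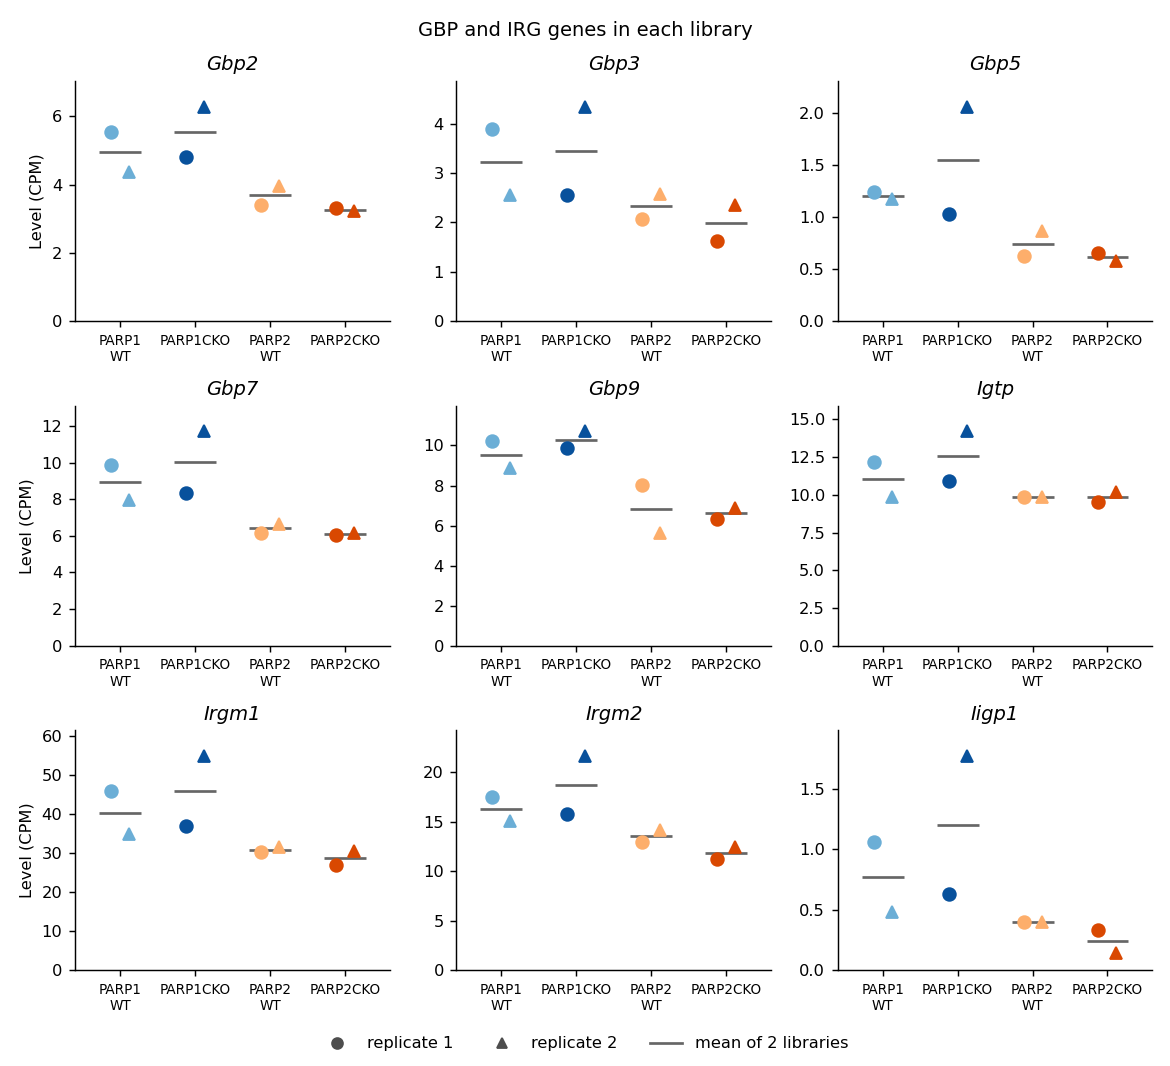
CPM of each GTPase gene (vertical axis, from 0) in the 8 libraries by group, circles for replicate 1, triangles for replicate 2 and bars for the mean of 2 libraries. PARP1CKO replicate 2 is the highest point in all 9 panels, and the PARP2 WT and PARP2CKO points lie low in each.

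Deletion of PARP1 in myeloid cells was the first comparison. Of the 9 members, 0 passed an adjusted p of 0.05 in edgeR's quasi-likelihood test (0.106% of all genes tested did). In that test 0 had an unadjusted p under 0.05 (11.3% of all genes), and 0 passed the likelihood-ratio test (1.11%) or DESeq2 (0.652%). All 9 log2 fold changes were positive, with a median of 0.18 against 0.006 over all genes, of which 52.1% were positive. The PARP1CKO and WT libraries were apart for 0 of 9 members, against 41.2% of all genes in either direction. In bulk RNA of this kind, fewer cells of a type and less RNA per cell cannot be told apart.

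The positive values rested on PARP1CKO replicate 2. Without it 8 of 9 members had a negative log2 fold change, from -0.32 for Gbp3 and -0.24 for Iigp1 to -0.01 for Igtp, and Gbp9 stayed positive at 0.06. The median went to -0.09. Without PARP1CKO replicate 1 it was 0.41, and 6 of 9 then had an unadjusted p under 0.05 with 0 called, beside 11.2% of all genes under 0.05 in that fit. Without PARP1 WT replicate 1 the median was 0.35. Without PARP1 WT replicate 2 it was 0.02, and Gbp2, Gbp3 and Irgm1 turned to -0.00, -0.18 and -0.01.

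Deletion of PARP2 was the second comparison. Of the 9 members, 0 were called by the quasi-likelihood test (background 0.0530%), 0 had an unadjusted p under 0.05 (4.83%), and 0 passed the likelihood-ratio test (0.296%) or DESeq2 (0.205%). Negative log2 fold changes were found for 8 of 9 members, with a median of -0.17 against -0.001 over all genes, of which 50.7% were negative. Both PARP2CKO libraries lay below both PARP2 WT libraries for 4 of 9 (Gbp2, Gbp7, Irgm2 and Iigp1), and 18.8% of all genes did. The direction of 3 members depended on a single library: Gbp9 was 0.23 without PARP2 WT replicate 1, Gbp3 was 0.03 and Gbp9 0.01 without PARP2CKO replicate 1, and Igtp was -0.05 without PARP2CKO replicate 2 and -0.02 when libraries were scaled by size alone. Without PARP2 WT replicate 2, Gbp5 and Gbp7 were each at -0.01 and Gbp2 and Gbp3 at -0.06. Irgm1 was -0.02 and Irgm2 -0.13 without PARP2CKO replicate 1.

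**Figure D2:**
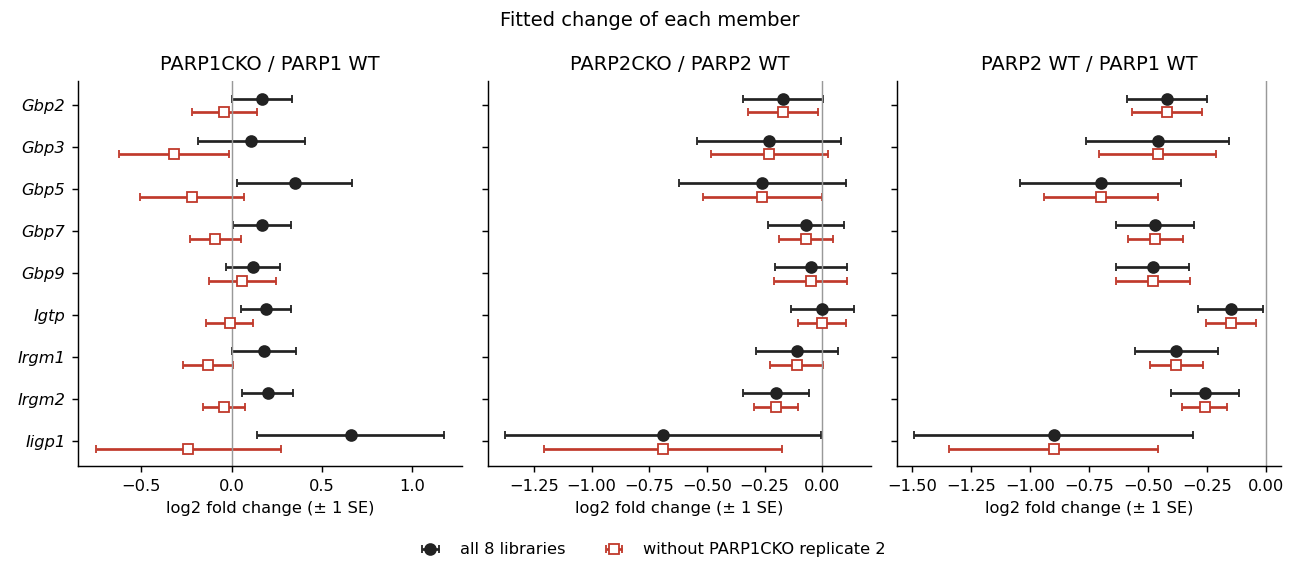
Log2 fold change of each GTPase gene with bars of 1 SE (horizontal axis) for each deletion against its own WT and for PARP2 WT against PARP1 WT, from all 8 libraries (filled) and without PARP1CKO replicate 2 (open). In the left panel 8 of 9 values move below 0 without that library, and the other 2 comparisons do not contain that library.

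Whether the deletions acted differently was tested as the PARP2CKO effect minus the PARP1CKO effect. The log2 difference was negative for all 9 members and for 52.2% of all genes. It ran from -1.35 for Iigp1 (SE 0.859, adjusted p = 0.751) and -0.61 for Gbp5 to -0.17 for Gbp9, and the lowest adjusted p was 0.684, for Irgm2. With a library left out, Iigp1 ran from -2.11 (without PARP2CKO replicate 1) to -0.44, and Gbp5 from -1.03 (without PARP1CKO replicate 1) to -0.03. Both of these smallest values were without PARP1CKO replicate 2, where Gbp2 was -0.13 and Irgm2 -0.16. Of the 9, 0 were called by edgeR's quasi-likelihood test (background 0.0152%), 0 had an unadjusted p under 0.05 (7.69%), and 0 were called by the likelihood-ratio test (0.546%) or DESeq2 (0.341%). The median of -0.33 went to -0.03 without PARP1CKO replicate 2, where Gbp3, Gbp7, Igtp and Irgm1 turned to 0.09, 0.02, 0.01 and 0.02. Gbp9 turned to 0.12 without PARP2 WT replicate 1. This comparison uses the same control libraries as the previous ones, so its values are not independent of theirs.

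The WT groups of the lines were then compared, since neither carries Cre. All 9 members were lower in PARP2 WT than in PARP1 WT, with a median log2 fold change of -0.46 against 0.001 over all genes, of which 49.6% were lower. The largest were -0.90 for Iigp1 (SE 0.590, adjusted p = 0.457) and -0.70 for Gbp5 (SE 0.341, adjusted p = 0.313), and the smallest was -0.15 for Igtp (SE 0.138, adjusted p = 0.595). With edgeR's quasi-likelihood test 0 of 9 were called (background 3.16%). Gbp2 (-0.42), Gbp7 (-0.47) and Gbp9 (-0.48) had unadjusted p-values of 0.0350, 0.0187 and 0.0132, and 18.9% of all genes had one under 0.05. The likelihood-ratio test (background 6.90%) and DESeq2 (4.18%) each called 0. Both PARP2 WT libraries lay below both PARP1 WT libraries for 7 of 9 members, against 25.2% of all genes, and Gbp3 and Igtp overlapped. Gbp9 was the 1 member called without PARP2 WT replicate 1 (-0.76, adjusted p = 0.0418), and it was -0.25 (adjusted p = 0.489) without PARP2 WT replicate 2. Igtp was at 0.00 without PARP1 WT replicate 1. That library also carried much of the value of Iigp1, which was -0.27 without it and -1.40 without PARP1 WT replicate 2, while Gbp5 was -0.66 without PARP1 WT replicate 1. Without the same library Gbp2 was -0.25, Gbp3 -0.15, Gbp7 -0.31, Irgm1 -0.18 and Irgm2 -0.16. Without PARP1 WT replicate 2, Gbp3 was -0.75 and Igtp -0.31.

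In group means the order was the same for nearly every member. PARP1CKO came first and PARP1 WT next for 9 of 9, and PARP2 WT stood above PARP2CKO for 8 of 9, with Igtp the exception. The neighbours PARP1CKO and PARP1 WT overlapped for all 9 members. The neighbours PARP1 WT and PARP2 WT did not overlap for 7 of 9, with PARP2 WT lower, as held for 25.2% of all genes. The share of all genes with this order of group means is not given here. These counts are not independent, since the members rose and fell together, as described below.

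Because the libraries separated by line, all 4 libraries of the PARP2 line were also compared with all 4 of the PARP1 line, a test chosen after these values were seen and sharing its libraries with the comparisons above. Irgm1 was 29.9 ± 1.97 CPM in the PARP2 line and 43.2 ± 9.11 CPM in the PARP1 line (SD, n = 4), Gbp7 6.27 ± 0.273 and 9.49 ± 1.71, and Iigp1 0.320 ± 0.121 and 0.987 ± 0.576. The log2 fold change was -0.59 for Gbp2 (SE 0.120, adjusted p = 0.0120), -0.59 for Gbp7 (SE 0.115, adjusted p = 0.0100) and -0.56 for Gbp9 (SE 0.109, adjusted p = 0.0100) in edgeR's quasi-likelihood test. It was -1.58 for Iigp1, -0.53 for Irgm1 and -0.46 for Irgm2, with adjusted p of 0.0351, 0.0217 and 0.0161. Gbp5 was 0.680 ± 0.127 CPM in the PARP2 line and 1.37 ± 0.463 CPM in the PARP1 line (SD, n = 4, adjusted p = 0.0233). Gbp3 (-0.63, adjusted p = 0.0788) and Igtp (-0.25, adjusted p = 0.114) did not pass.

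In all, 7 of 9 members were called lower in the PARP2 line, against 8.04% of all genes called lower and 16.4% called in either direction. The 4 libraries of the PARP2 line lay below the 4 of the PARP1 line for 7 of 9 members and for 9.93% of all genes. The number called fell most without PARP1 WT replicate 1, without PARP2 WT replicate 1 or without PARP2CKO replicate 1, and less without PARP1CKO replicate 2. The share of all genes called in these smaller refits is not given here, so the fall cannot be put down to the members alone. Their median log2 fold change of -0.59 was -0.50, -0.55 and -0.53 in the first 3 of these refits and -0.46 without PARP1CKO replicate 2. Gbp2, Gbp7 and Gbp9 passed with each library left out, with adjusted p up to 0.0489, 0.0461 and 0.0496. Between the CKO groups alone 7 of 9 were called lower in PARP2CKO (background 5.34%, and 10.3% in either direction). These calls were lost without PARP1CKO replicate 2, which leaves 1 PARP1CKO library, and calls over all genes fell in that refit as well. All 9 log2 fold changes stayed negative there but were smaller. For example, Gbp2 went from -0.76 to -0.55, Gbp9 from -0.64 to -0.58 and Iigp1 from -2.25 to -1.35. The floxed gene and any batch cannot be told apart between the lines.

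The members rose and fell together across libraries. Each member's log2 CPM was centred on its own mean, and the 9 were averaged. This mean was 0.42 and 0.03 for PARP1 WT IMCs, 0.12 and 0.74 for PARP1CKO IMCs, -0.27 and -0.18 for PARP2 WT IMCs, and -0.42 and -0.43 for PARP2CKO IMCs. The GBP and IRG subsets gave like values, for example 0.68 and 0.82 in PARP1CKO replicate 2. PARP1CKO replicate 2 was the highest library for 9 of 9 members with PARP1 WT replicate 1 next for 9 of 9, an order that 5.75% of all genes shared. All 9 members were below their own mean in each of the 4 libraries of the PARP2 line. The correlation of a member with the mean of the other 8, a description over 8 libraries that share these 2 high libraries, ran from 0.793 (Gbp9) to 0.991 (Gbp7), and from 0.743 to 0.986 over 7 libraries without PARP1CKO replicate 2.

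**Figure D3:**
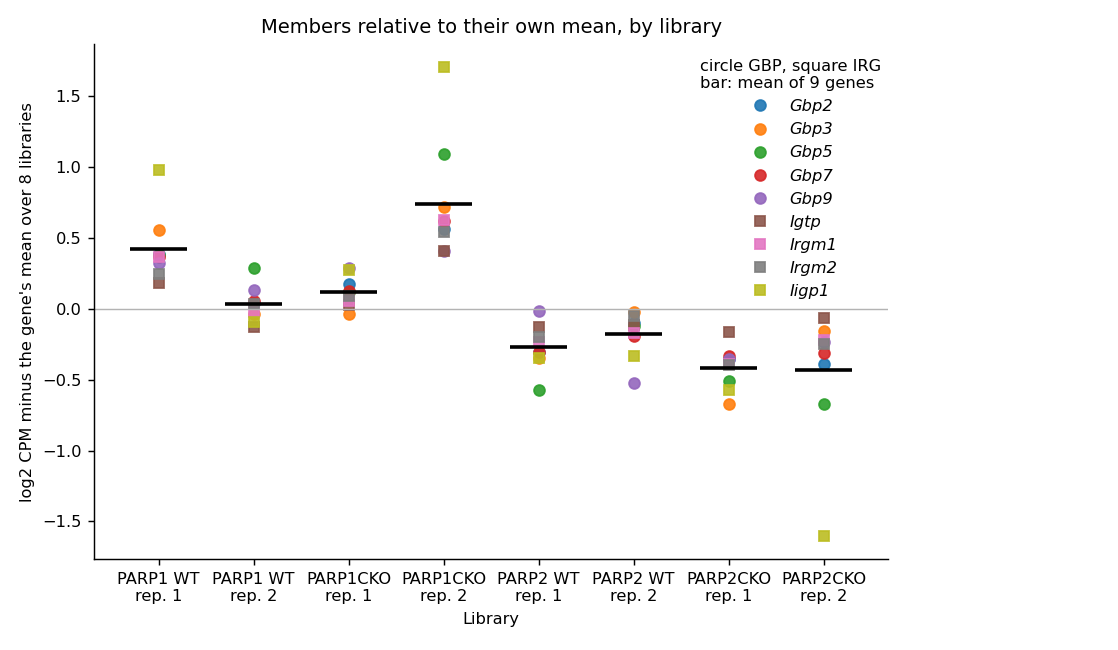
Log2 CPM of each GTPase gene minus its mean over the 8 libraries (vertical axis), by library, circles for GBPs, squares for IRGs and black bars for the mean of 9. The mean is highest in PARP1CKO replicate 2 (0.74) and PARP1 WT replicate 1 (0.42), and every point of the PARP2 line lies below 0.

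The signalling genes upstream of the GTPases were examined from ligand to transcription factor. The interferon-gamma gene Ifng had 0 or 1 counts in each library and the interferon-beta gene Ifnb1 likewise, so neither ligand was measurable at this depth. The receptor genes Ifngr1 and Ifngr2 and the kinase genes Jak1 and Jak2 did not pass between the WT groups, with log2 fold changes of 0.01, 0.01, -0.07 and -0.06 and adjusted p of 0.894, 0.903, 0.334 and 0.599. Socs1, a feedback inhibitor of the pathway, had a log2 fold change of 0.15 (SE 0.263, adjusted p = 0.806).

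Irf1, a transcription factor that acts on GTPase promoters, was -0.18 in PARP2 WT against PARP1 WT (adjusted p = 0.295) and -0.27 between the lines (adjusted p = 0.0164), and the latter was lost without PARP1 WT replicate 1, PARP2 WT replicate 2 or PARP2CKO replicate 1 (adjusted p = 0.0525, 0.0551 and 0.0657). Stat2, a factor of the type I interferon response, was -0.12 (adjusted p = 0.548) and -0.36 (adjusted p = 0.0102), and Irf9, which binds DNA together with Stat2, was -0.07 (adjusted p = 0.777) and -0.18 (adjusted p = 0.128). In the other direction, Irf2 (0.13, adjusted p = 0.0238) and Irf8 (0.12, adjusted p = 0.0240), factors of the same family as Irf1, were higher in the PARP2 line, with all 4 libraries apart. The call of Irf2 was lost without PARP1 WT replicate 1, PARP1CKO replicate 2, PARP2 WT replicate 1 or PARP2CKO replicate 1 (adjusted p from 0.0608 to 0.0951). That of Irf8 was lost without PARP1 WT replicate 1, PARP1CKO replicate 1, either PARP2 WT library or PARP2CKO replicate 2 (adjusted p from 0.0553 to 0.0792). Between the CKO groups alone neither passed, with adjusted p = 0.154 for Irf2 and 0.306 for Irf8. None of these 5 factors passed in either deletion comparison.

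Among the 10 of 13172 tested genes outside the GTPase families whose pattern was most like the mean of the members, Sp100, a nuclear body protein, had a Pearson r of 0.990 over the 8 libraries. It was followed by Isg20, an interferon-stimulated exonuclease, at 0.986, Ddx58, the RNA sensor RIG-I, at 0.985, and Epsti1 at 0.984. Arl2bp, Birc3, D16Ertd472e, Trim21 and Abcg1 were also among them, with r from 0.982 to 0.978. These values describe likeness across libraries that also share their line and their high libraries.

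The remaining GTPases of both families were followed for comparison. Of the other GBPs, 3 passed the filter on low counts and all 3 were lower in PARP2 WT than in PARP1 WT. Gbp4 had 5.35 and 4.43 CPM in PARP1 WT IMCs, 3.29 and 4.69 CPM in PARP1CKO IMCs, 2.66 and 2.04 CPM in PARP2 WT IMCs, and 2.15 and 2.03 CPM in PARP2CKO IMCs. Its log2 fold change between the WT groups was -1.05 (SE 0.203, adjusted p = 0.0309), which lost the call with adjusted p from 0.0531 to 0.189 without any 1 of the 6 libraries outside PARP1CKO. Gbp8 (-1.08, adjusted p = 0.143) and Gbp6 (-0.86, adjusted p = 0.325) did not pass there in edgeR's quasi-likelihood test. The likelihood-ratio test called 2 of the 3 other GBPs lower between the WT groups, beside 6.90% of all genes in either direction. Between the lines all 3 were called, Gbp4 at -0.99, Gbp8 at -1.25 and Gbp6 at -1.08, and Gbp6 lost its call, with adjusted p up to 0.139, without PARP1 WT replicate 1, PARP1CKO replicate 2, PARP2CKO replicate 1 or either PARP2 WT library. Of all genes 8.04% were called lower between the lines. Gbp4 and Gbp8 overlap the Gbp9 gene model, so part of their reads may be shared.

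Of the other IRGs, 10 were tested and 9 were lower in PARP2 WT, with a median of -0.48. Both the quasi-likelihood test and the likelihood-ratio test called 0, and 4 were lower with an unadjusted p under 0.05 (18.9% of all genes had one, in either direction). Tgtp2, an effector IRG, had 2.61 and 1.33 CPM in PARP1 WT IMCs, 1.35 and 2.63 CPM in PARP1CKO IMCs, 1.05 and 0.903 CPM in PARP2 WT IMCs, and 0.469 and 0.621 CPM in PARP2CKO IMCs. Its log2 fold change was -0.98 between the WT groups (adjusted p = 0.224) and -1.42 between the lines (SE 0.288, adjusted p = 0.0118), the latter at adjusted p = 0.0608 without PARP2CKO replicate 1. Ifi47 was -0.59 between the lines (adjusted p = 0.0133) and lost the call without PARP1 WT replicate 1 or PARP2CKO replicate 1 (adjusted p = 0.0509 and 0.0612). Beside 8.04% of all genes called lower between the lines, 5 of these 10 were called lower. This number was 0 without PARP2CKO replicate 1, 1 without PARP1 WT replicate 1, 2 without PARP2 WT replicate 1, and 3 without PARP2 WT replicate 2 or PARP2CKO replicate 2.

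Type I interferon response genes, which include antiviral effectors and RNA sensors, were lower in the PARP2 line as well. All 27 tested were lower in PARP2 WT than in PARP1 WT, with a median of -0.48. The quasi-likelihood test called 3 (Oas1a at -0.59, Oas2 at -0.77 and Oas3 at -1.02, adjusted p = 0.0431, 0.0187 and 0.00703), beside 3.16% of all genes. In that test 12 had an unadjusted p under 0.05 (18.9% of all genes), and the likelihood-ratio test called 6 (6.90%). The OAS enzymes make the messenger that switches on RNase L. Oas3 was the 1 gene of the 3 that passed with each library left out, with adjusted p up to 0.0418, and the number called was 1 without PARP1 WT replicate 1 or without either PARP2 WT library, 2 without either PARP2CKO library and 5 without either PARP1CKO library. Between the lines 25 of 27 were called lower with a median of -0.86, a number that was 15, 16 and 11 without PARP1 WT replicate 1, PARP2 WT replicate 1 and PARP2CKO replicate 1. Of all genes 8.04% were called lower between the lines and 16.4% in either direction. In PARP1CKO 26 of 27 were higher, with a median of 0.33, and 52.1% of all genes were higher. Of the 27, 0 were called and 3 had an unadjusted p under 0.05, beside 11.3% of all genes in either direction. Without PARP1CKO replicate 2 only 13 were higher, with a median of -0.04. In PARP2CKO 26 of 27 were lower (median -0.22, 0 called, 0 with an unadjusted p under 0.05). Of all genes 50.7% were lower and 4.83% had an unadjusted p under 0.05. Both PARP2CKO libraries lay below both WT libraries for 17 of the 27 and for 18.8% of all genes. Among these 17, Ifi44 (-0.86), Ifit3 (-0.68), Rsad2 (-0.63) and Ifit1 (-0.60) had the largest values. All 27 were highest in PARP1CKO replicate 2, the library that was highest for 18% of all genes.

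The other interferon lists had medians nearer to 0 between the WT groups, where 3.16% of all genes were called in either direction. Of 21 other response genes tested, which hold antigen presentation and chemokine genes, 11 were lower and 10 higher in PARP2 WT, with a median of -0.01. The 1 called was B2m, the light chain of MHC class I, at -0.36 (SE 0.0484, adjusted p = 0.00703), which was at adjusted p = 0.0662 without PARP2 WT replicate 2. The 16 interferon-gamma signalling genes had a median of -0.06 with 0 called. Of these, 3 had an unadjusted p under 0.05 (18.9% of all genes), and the likelihood-ratio test called 1 (6.90%). Of 12 type I interferon signalling genes 1 was called, the DNA-sensing adaptor Tmem173 (STING) at -0.28 (adjusted p = 0.0449), which lost the call, with adjusted p up to 0.234, without PARP1 WT replicate 1 or any library of the PARP2 line. The 22 genes for vacuole targeting and inflammasomes, partners of the GTPases such as Atg5, Casp4 and Gsdmd, had a median of -0.03. Of these 22, 0 were called, and 6 had an unadjusted p under 0.05, beside 18.9% of all genes. The 3 very large inducible GTPase genes tested had a median of -0.21 with 0 called and 0 at an unadjusted p under 0.05, and Gvin1 and Gm4070 among them had identical counts. Between the lines 16.4% of all genes were called in either direction. There 3 interferon-gamma signalling genes were called lower and 2 higher, numbers that ran from 1 to 5 and from 0 to 2 with a library left out. Of the type I signalling genes 5 were called lower (from 3 to 6), among them Usp18 at -1.16 and Irf7 at -0.78. The other response genes had 2 lower (B2m at -0.45 and Aim2 at -0.28) and 2 higher (Cd274 at 0.27 and Fcgr1 at 0.16), and the lower count ran from 1 without PARP2 WT replicate 1 or PARP2CKO replicate 1 to 5 without PARP1 WT replicate 2 or PARP1CKO replicate 1. The vacuole and inflammasome genes had 4 lower and 1 higher, numbers that ran from 3 to 5 and from 0 to 2 with a library left out. No list had a called gene in either deletion comparison.

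**Figure D4:**
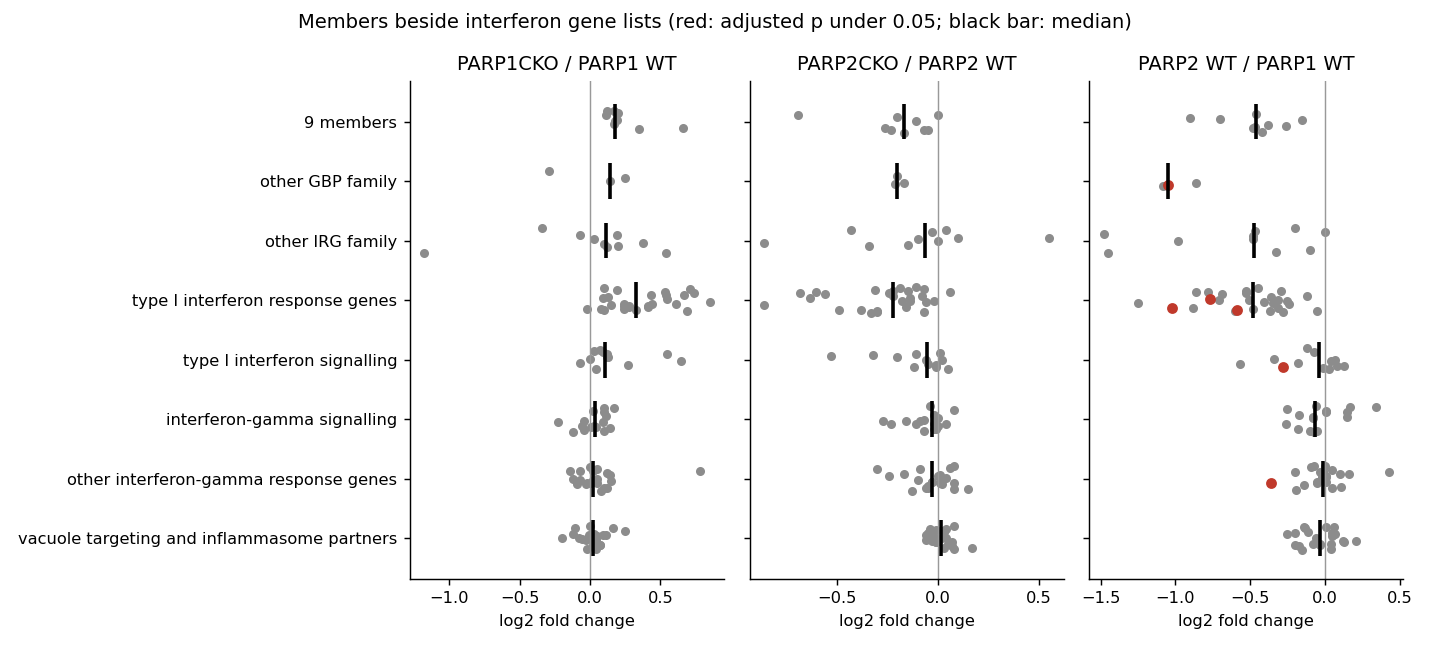
Log2 fold change (horizontal axis) of each tested gene of the GTPase members and 7 interferon-related lists in 3 comparisons, red where the adjusted p is under 0.05 and black bars for medians. In PARP2 WT against PARP1 WT the GTPase families and the type I response genes lie below 0, with medians of -0.46, -1.05, -0.48 and -0.48, while the other medians lie between -0.06 and -0.01.

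Markers of several other cells differed between the lines, and those of others overlapped. The summed level of 8 B cell markers, all detected in every library, was 29.6 to 43.3 CPM in the PARP1 line and 8.18 to 11.5 CPM in the PARP2 line, and PARP1CKO replicate 2 was highest. The 6 markers of plasmacytoid dendritic cells, which secrete interferon on infection, summed to 66.7 to 76.1 CPM and 50.0 to 57.2 CPM, again highest in PARP1CKO replicate 2. Tcf4 made up most of this sum, with 48.8 to 50.0 CPM and 41.8 to 45.4 CPM, and without it the sums were 17.5 to 26.1 CPM and 8.16 to 12.1 CPM. Ly6d, Ccr9 and Cox6a2 were apart between the lines, whereas Siglech overlapped (3.71 to 5.73 CPM and 2.33 to 4.03 CPM) and Klk1 was near 0. Sums for basophil and mast cell markers were 12.5 to 18.1 CPM and 6.42 to 10.6 CPM, and for erythroid markers 3.29 to 6.48 CPM and 1.49 to 1.88 CPM. T and NK cell markers, the usual source of interferon-gamma, summed to 2.82 to 4.65 CPM and 3.25 to 4.25 CPM, so these overlapped. The sums of 7 neutrophil markers overlapped too, at 2446 to 3108 CPM and 2571 to 3171 CPM. Of these markers, Retnlg (17.5 to 20.0 CPM and 7.27 to 13.0 CPM) and Cxcr2 (19.3 to 24.6 CPM and 10.5 to 16.4 CPM) were higher in every library of the PARP1 line, and the other 5 overlapped. Monocyte and macrophage markers, over the 8 analysed, summed to 8123 to 11111 CPM and 10686 to 15768 CPM. Lyz2, the lysozyme gene, was the most abundant of them, and without it the sums of the other 7 were 4407 to 4724 CPM and 4781 to 5131 CPM. Of these, Fcgr1, also among the other response genes above, was apart between the lines (56.1 to 61.5 CPM and 61.7 to 69.6 CPM). Csf1r, Cd68, Itgam, Ly6c2, Ccr2 and Mrc1 each overlapped, as did Lyz2. PARP1CKO replicate 2 was also highest for the T and NK cell sum and the erythroid sum. The basophil and mast cell sum was highest in PARP1 WT replicate 1. The neutrophil sum and the monocyte and macrophage sum were highest in PARP2 WT libraries. The part of any of these cell types in the difference between the lines was not tested.

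**Figure D5:**
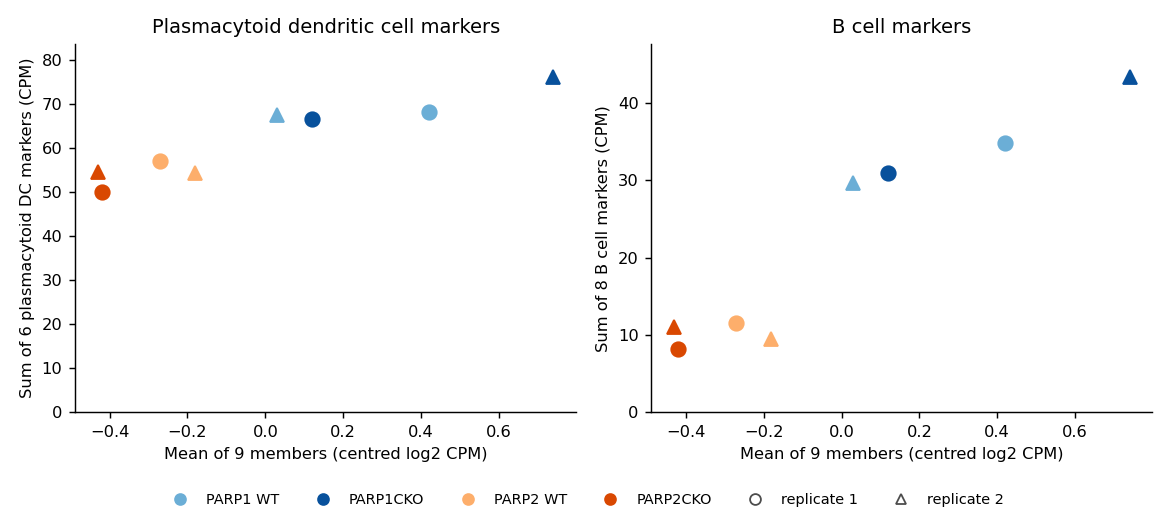
Summed CPM of 6 plasmacytoid dendritic cell markers (left) and of 8 B cell markers (right) against the mean of the 9 GTPase genes in centred log2 CPM, 1 point per library. Both sums separate the lines, the B cell sum with 8.18 to 11.5 CPM in the PARP2 line and 29.6 to 43.3 CPM in the PARP1 line.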

How the data were processed

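Raw counts by gene were deposited. To make them the authors trimmed single-end reads of 75 bp with fastq-mcf, then aligned them to mm10 with TopHat2 (2.0.12 in the submitters' processing notes) and counted by featureCounts. The library kit was stranded. The strand setting, annotation and handling of marked duplicates are not given in the sources used here. The tests started from these counts in R 4.3.3. Genes were kept by edgeR 4.0.16's filter by expression, libraries were scaled by TMM, and 1 model of the 4 groups was fitted over 13197 genes and tested by the quasi-likelihood test of edgeR, adjusting p-values by Benjamini-Hochberg. The threshold was an adjusted p of 0.05, and log2 CPM used a prior count of 2. Alternatives were the likelihood-ratio test, DESeq2 1.42.0, other scalings and filters, a replicate block and each library left out. With 2 libraries a group, p-values rest on the spread shared across genes, and an exact two-sided permutation of 2 against 2 cannot go below 0.333. Total counts per library set the counting error.

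The genes and lists were chosen with earlier results of these data known, and all members were named. Of other lists, some called genes, up to 4 of the largest changes whose groups did not overlap, and a few signalling genes were named. Most of the 10 genes most like the members were named too. The comparisons between the lines and between the CKO groups were added after the values were seen. Replicate numbers were not taken as pairs. The count models were tested on simulated data. Gene positions came from GENCODE M21 and promoter sequences from RefSeq (GRCm38.p6), where Gbp9 and Iigp1 were not matched. One gene is not reported here.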

Additional observations from a re-analysis of the deposited data

How the results depend on the processing

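Of the members' log2 fold changes with a library left out, 11 of 72 changed direction in PARP1CKO, 4 of 72 in PARP2CKO and 5 of 72 in the difference. For each deletion, these totals include refits without a library of the other line. Such refits leave the compared libraries unchanged and could not turn the value, so the totals do not measure stability. The values of each member that changed sign ran, in PARP1CKO, from -0.04 to 0.35 for Gbp2, from -0.32 to 0.44 for Gbp3, from -0.22 to 0.77 for Gbp5, from -0.09 to 0.40 for Gbp7, from -0.01 to 0.37 for Igtp, from -0.13 to 0.44 for Irgm1, from -0.04 to 0.41 for Irgm2 and from -0.24 to 1.29 for Iigp1. In PARP2CKO they ran from -0.51 to 0.03 for Gbp3, from -0.28 to 0.23 for Gbp9 and from -0.05 to 0.05 for Igtp. In the difference they ran from -0.67 to 0.09 for Gbp3, from -0.47 to 0.02 for Gbp7, from -0.39 to 0.12 for Gbp9, from -0.37 to 0.01 for Igtp and from -0.55 to 0.02 for Irgm1, and between the WT groups from -0.31 to 0.00 for Igtp. Without PARP1 WT replicate 2 PARP1CKO gave Gbp2 -0.00, Gbp3 -0.18 and Irgm1 -0.01, and with library size alone Igtp was -0.02 in PARP2CKO.

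The members' median ran from -0.09 to 0.41 in PARP1CKO, from -0.27 to -0.06 in PARP2CKO, from -0.55 to -0.03 in the difference, from -0.59 to -0.25 between the WT groups and from -0.68 to -0.46 between the lines when a library was left out. Members called ran from 0 to 1 between the WT groups and from 3 to 9 between the lines. The share of all genes called in the refits behind these numbers is not given here, so neither range can be put down to the members alone. The same holds for the numbers called in the other lists with a library left out. Between the CKO groups PARP1CKO replicate 2 was the 1 library left out. The members' calls were lost in that refit, where calls over all genes also fell. Between the WT groups 1 was called (Gbp9) with no filter on low counts. The cause of these changes was not tested.

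The replicate block left 0 members called in both deletion comparisons and 6 of 9 between the lines, where it called 13.3% of all genes (16.4% without the block). Same-numbered libraries deviated with a correlation of -0.133 for PARP1 WT and PARP1CKO and 0.147 for PARP2 WT and PARP2CKO. With 2 libraries a group, these values cannot decide whether the numbers pair the libraries. With the PARP1CKO numbers crossed, a pairing chosen after seeing the data, 0 members were called in each deletion comparison, 2 between the WT groups (6.12% of all genes, 3.16% without a block) and 9 between the lines (21.3% of all genes). The largest shift of the median of all genes under another scaling was to -0.050. Depth limits Iigp1 most, with 7 to 80 counts per library.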
